A study of Mus musculus with 234 samples.

Results

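The 3 members of the Gadd45 family, Gadd45a, Gadd45b and Gadd45g, and 3 canonical targets of the transcription factor p53, Cdkn1a, Mdm2 and Ccng1, were followed through single cardiomyocytes (CMs) of mice that carry a mutated human BAG3, a co-chaperone of the Z-disc. The genes were taken by symbol, and all 6 were found among the 55538 features of the count table. They were chosen by their levels in these same cells, so those levels are described here without a test.

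Control CMs came from Mouse_26 (24 cells) and Mouse_73 (9 cells), both titled wt (wild type), with the genotype label control and the strain label C57BL/6. In the study's methods, controls in general are siblings of wild-type, PGK-Cre or floxed genotype on a mixed 129S6/SvEvTac, C57BL/6Ncr and CD-1 background. Homozygous PGKcre:BAG3P209L CMs came from Mouse_25 (21 cells labelled bright and 18 labelled dim) and Mouse_116 (59 bright and 50 dim), and heterozygous CMs from Mouse_72 (27 bright and 26 dim). In this line a CAG promoter drives human BAG3P209L fused to eGFP from the Rosa26 locus once PGK-Cre, which is active in all tissues, has removed a STOP cassette, and a homozygous mouse can have lost 1 or both cassettes. The study's methods place the transgenic mice of this line on the same mixed background as controls in general. The mice were 2 weeks old, except that no age is stated for Mouse_72. CMs were isolated from Langendorff-perfused ventricles, sorted into bright and dim for eGFP under a fluorescence macroscope and picked by hand, and wells with little cDNA were left out before sequencing with SMART-seq2, which reads whole transcripts without molecular identifiers.

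The Gadd45 proteins are small stress-inducible proteins without enzyme activity of their own. They bind and activate the kinase MEKK4 (Map3k4) upstream of p38 and JNK, disrupt the complex of Cdk1 with cyclin B1, bind PCNA and take part in DNA demethylation, and Gadd45b restrains the JNK kinase Map2k7. p53 raises the transcription of Cdkn1a, whose product p21 inhibits cyclin-dependent kinases, of Mdm2, the ubiquitin ligase that marks p53 itself for degradation, and of Ccng1, the cyclin G1 that recruits a phosphatase to MDM2. In heart muscle p21 is known for the withdrawal of CMs from the cell cycle after birth.

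The 6 genes lie on 5 chromosomes of the GRCm38 mouse genome in GENCODE M21, to which they were matched by symbol, since the build behind the counts was not stated. Gadd45a occupies chr6:67035096-67037457 on the minus strand, Gadd45b chr10:80930073-80932204 on the plus strand and Gadd45g chr13:51846678-51848468 on the plus strand. Cdkn1a occupies chr17:29090976-29100727 on the plus strand, Mdm2 chr10:117688875-117710758 on the minus strand and Ccng1 chr11:40748552-40755311 on the minus strand. Their exons cover 1764 bases for Gadd45a, 1589 for Gadd45b, 1173 for Gadd45g, 3553 for Cdkn1a, 5083 for Mdm2 and 3512 for Ccng1. E230016M11Rik lies opposite Gadd45a and held between 0 and 75 counts in a sum of cells of 1 mouse and eGFP class, against 5 to 92 for Gadd45a. Without a stated strand the reads of this pair cannot be told apart. AC167363.2, opposite Cdkn1a, held 1 count in all.

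The bases before the start sites of Gadd45b, Gadd45g and Cdkn1a are printed here. With Gadd45a, which is not printed because of its low counts, they were the members with lower levels in both homozygous groups, and they differ in the p53 motif. They come from the RefSeq promoter table (GRCm38.p6), trimmed to end before the GENCODE start. All 6 genes matched that table. The windows are chr10:80929841-80930072 for Gadd45b, chr13:51846425-51846674 for Gadd45g and chr17:29090729-29090975 for Cdkn1a, all on the plus strand and written 5′ to 3′. Capitals mark TATA boxes (TATAAA, with TATATA also counted), CCAAT boxes (CCAAT) and the p53 consensus decamer, each searched on both strands.
Gadd45b: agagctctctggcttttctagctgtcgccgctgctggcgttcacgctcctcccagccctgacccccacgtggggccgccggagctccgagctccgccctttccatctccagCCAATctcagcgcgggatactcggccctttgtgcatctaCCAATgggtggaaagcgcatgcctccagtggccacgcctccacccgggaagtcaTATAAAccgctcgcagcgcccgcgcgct
Gadd45g: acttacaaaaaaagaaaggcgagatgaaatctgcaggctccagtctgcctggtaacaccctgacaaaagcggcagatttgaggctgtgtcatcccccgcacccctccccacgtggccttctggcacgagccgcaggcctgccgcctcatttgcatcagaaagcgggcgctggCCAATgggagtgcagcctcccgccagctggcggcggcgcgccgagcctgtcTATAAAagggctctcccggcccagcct
Cdkn1a: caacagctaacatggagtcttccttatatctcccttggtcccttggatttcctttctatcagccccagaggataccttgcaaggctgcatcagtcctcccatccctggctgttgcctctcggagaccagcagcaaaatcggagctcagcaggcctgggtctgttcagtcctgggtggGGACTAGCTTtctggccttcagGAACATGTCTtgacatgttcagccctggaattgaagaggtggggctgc
In the 250 bases before the RefSeq start, the p53 decamer was matched for Gadd45a (inside the GENCODE gene), Mdm2, Ccng1 and the upstream start of Cdkn1a, but not for Gadd45b, Gadd45g or the downstream start of Cdkn1a. It was present in 7.13% of all 32851 windows of that length. Upstream of Cdkn1a there were 2 decamers, at -73 to -64 and -51 to -42 from the start, an arrangement (a pair with a gap of at most 13 bases) held by 0.0639% of windows. Gadd45b and Gadd45g instead held a TATA box, at -46 to -41 and -27 to -22, which was found in 15.6% of windows, with 2 CCAAT boxes in Gadd45b and 1 in Gadd45g (33.8% of windows). The serum response element and AP-1 (TGACTCA on either strand) were matched in none of the 6 genes, against 1.47% and 4.46% of windows. A match is a description of the letters only.

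Total counts ran from 487 to 1392253 per cell (median 711527), and 15 of 234 cells had fewer than 1000 features with a count. The animal was the replicate, so the cells of a mouse that shared an eGFP class were added up, which gave 8 sums of 4096609 to 40508124 counts. Control Mouse_73, with the fewest cells, had the smallest sum. Levels are given as normalized CPM, the CPM of a sum after division by its TMM factor (counts scaled to the library size, with a correction for composition). The human BAG3 feature checked the labels. It stood at 0.446 and 0.580 normalized CPM in the controls, at 280 and 209 in the homozygous bright cells of animals Mouse_25 and Mouse_116 and at 10.4 and 91.2 in their dim cells. In heterozygous Mouse_72 the cells labelled dim carried more of it (243) than the cells labelled bright (110), so the order of transgene and of label disagree there. All 8 CM markers (Myh6, Tnnt2, Actc1, Ryr2, Pln, Tnni3, Actn2 and Ttn) were present in every sum, and their log2 fold changes had medians of -0.71 in bright (8 of 8 lower) and -0.67 in dim (6 of 8 lower) against control.

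Per kilobase of exon, Gadd45g was the most abundant of the 6 genes in both controls, at 237 and 225 normalized CPM per kilobase. Ccng1 followed with 108 and 69.9, Cdkn1a with 82.3 and 52.7, and Gadd45b with 15.98 and 17.5. The order of Ccng1 and Cdkn1a held within each control mouse, although their ranges over the mice overlapped. Mdm2 and Gadd45a were the least abundant, with 4.71 and 0.342 for Mdm2 and 2.09 and 2.63 for Gadd45a, and could not be ranked against each other. In the homozygous dim cells the order at the top was turned, with Ccng1 at 86.7 and 93.1 against 54.9 and 51.2 for Gadd45g. Gadd45g contributed 82.8 to 93.4% of all Gadd45 counts in every sum.

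Gadd45g, the family member with the highest level in these CMs, had no overlap between the control, bright and dim groups. It stood at 278 and 264 normalized CPM in control animals Mouse_26 and Mouse_73, at 136 and 103 in the bright cells of animals Mouse_25 and Mouse_116, and at 64.4 and 60.1 in their dim cells. The group means were 271 ± 10.02, 119 ± 23.1 and 62.2 ± 3.03 (SD, n = 2 mice each). Both bright sums lay below both controls, and both dim sums lay below all others. The log2 fold change was -1.21 ± 0.32 (SE) for bright and -2.14 ± 0.33 for dim against control, and 0.93 ± 0.25 for bright against dim. Within the plate named GL-9122b, which held animals Mouse_25 and Mouse_26, the dim to control ratio was 0.232 (exact 95% interval 0.217 to 0.247), and on the plates named GL9989, with animals Mouse_116 and Mouse_73, it was 0.228 (0.211 to 0.246). The bright to control ratios there were 0.488 and 0.391. Mouse_116 and Mouse_73 shared the plate name but no plate, with Mouse_73 on GL9989-1 and Mouse_116 on GL9989-2 and GL9989-3.

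In single cells Gadd45g behaved as a common transcript. It had a count in 22 of 24 and 7 of 9 control cells, 18 of 21 and 45 of 59 bright cells, and 16 of 18 and 41 of 50 dim cells. Over all cells, the median cell carried 224 and 197 CPM in the controls, 89.9 and 79.0 in the bright cells and 60.2 and 35 in the dim cells, so the order of the sums was also that of the typical cell. No single cell held more than 29.8% of the Gadd45g counts of a sum. The 2 plates of Mouse_116 gave 81.9 and 125 normalized CPM in bright and 54.6 and 68.1 in dim cells.

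Gadd45b, the family member known from TGF-β and NF-κB responses, was a rarer transcript than Gadd45g and less even between mice. It stood at 25.4 and 27.8 normalized CPM in the controls, at 19.2 and 5.19 in the bright cells of animals Mouse_25 and Mouse_116, and at 10.6 and 6.43 in their dim cells. All 4 homozygous sums lay below both controls, but the bright sums spread widely and overlapped the dim ones. The log2 fold change was -1.15 ± 0.85 for bright and -1.66 ± 0.75 for dim against control. It was 0.52 ± 0.77 for bright against dim, where the sign differed between the mice, with bright to dim ratios of 1.82 (1.53 to 2.17) in Mouse_25 and 0.808 (0.672 to 0.971) in Mouse_116. A count was found in 54.2 and 44.4% of control cells, 52.4 and 25.4% of bright cells, and in 9 of 18 and 12 of 50 dim cells.

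Gadd45a, the family member most often cited as a p53 target, was close to the floor of the measurement. Its sums held 66 and 16 counts in the controls, 28 and 92 in the bright cells of animals Mouse_25 and Mouse_116 and 54 and 66 in their dim cells, or 3.68 and 4.64, 1.41 and 2.04, and 2.84 and 1.75 normalized CPM. The homozygous sums lay below the controls in each case, yet in control Mouse_73 a single cell held 15 of the 16 counts, and without it the level was 0.343. In the dim cells of Mouse_25 one cell held 33 of the 54 counts, and without it the level was 1.17, and without its richest cell the bright sum of Mouse_25 was at 0.799. The fold changes of -1.29 ± 1.35 (bright) and -0.87 ± 1.41 (dim against control) and -0.42 ± 1.06 (bright against dim) were smaller than their errors. A count was present in 11.1 to 38.1% of cells. The human BAG3 feature, which control mice should lack, had a count in 6 of 24 and 1 of 9 control cells (median depths 932052 and 498819 counts), so the share alone does not set Gadd45a apart from background. In Mouse_26 its level did, with 66 counts and 4 cells of at least 10, against 8 counts and 0 such cells for human BAG3.

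**Figure D1:**
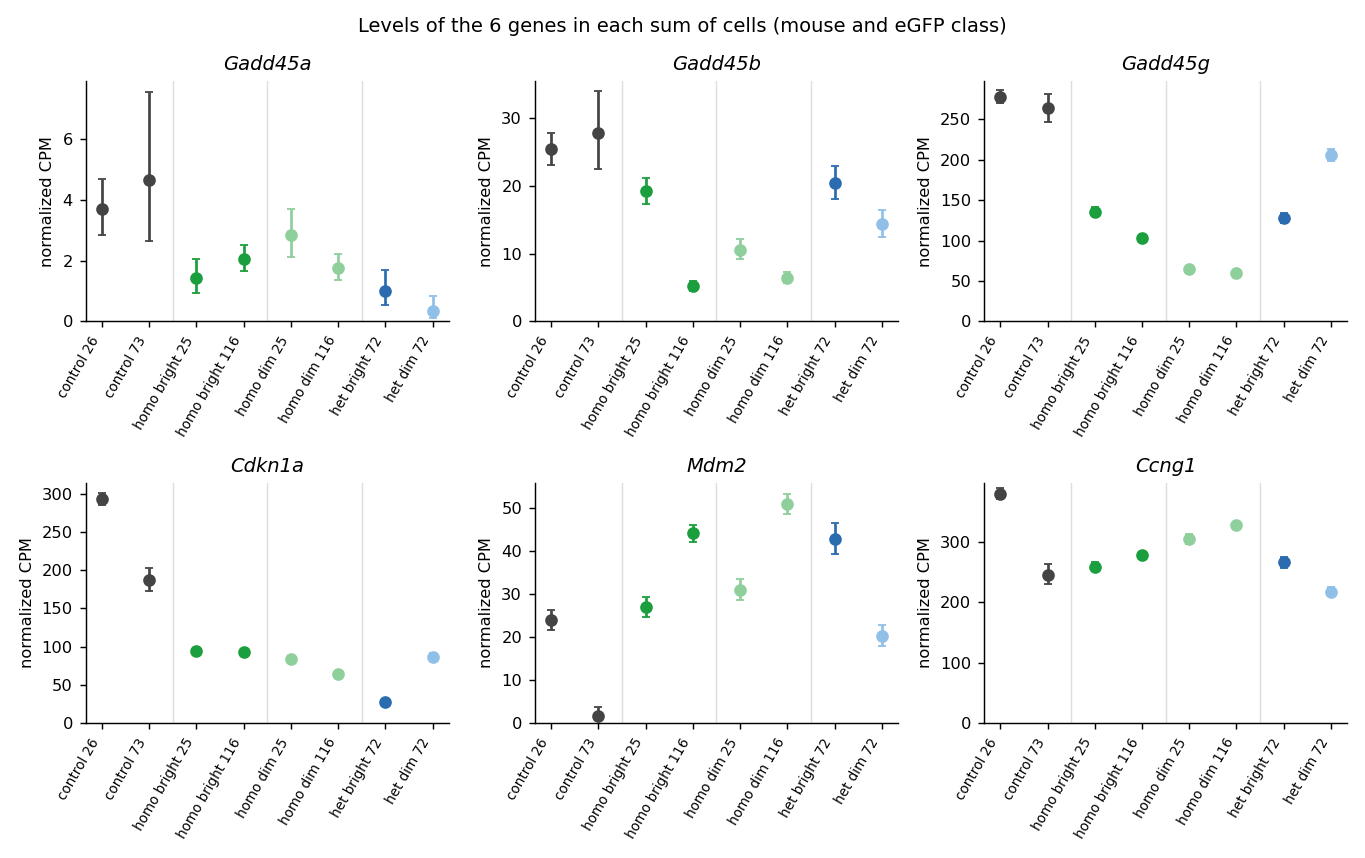
Normalized CPM (linear axis from 0) of the 6 genes in each of the 8 sums of cells, named by genotype label, eGFP class and mouse; bars are exact 95% Poisson intervals and cover counting error only. Gadd45g and Cdkn1a were highest in the 2 controls, Mdm2 was at 1.74 in control Mouse_73, and Ccng1 stayed between 217 and 379.

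Cdkn1a, which encodes p21, was lower in all 4 homozygous sums than in both controls. It stood at 292 and 187 normalized CPM in control animals Mouse_26 and Mouse_73, at 93.7 and 93.4 in the bright cells of animals Mouse_25 and Mouse_116, and at 83.3 and 63.8 in their dim cells. The dim sums were also below the bright ones. The median cells of Mouse_25 were nearly equal, at 77.0 CPM in bright and 77.2 in dim cells. Of these bright cells 1 had fewer than 1000 features, and of the dim cells 0. In Mouse_116 the median cell was lower in bright (28.3) than in dim cells (37.4). A single bright cell of Mouse_25 held 23.1% of its Cdkn1a counts, and without it the bright sum was at 75.8 normalized CPM. The dim sum without its own richest cell was at 73.2, so the order held when both were trimmed. The means were 240 ± 74.2 in control, 93.5 ± 0.191 in bright and 73.5 ± 13.8 in dim cells (SD, n = 2 mice each). The log2 fold change was -1.38 ± 0.35 for bright and -1.72 ± 0.39 for dim against control, and 0.34 ± 0.24 for bright against dim. The bright to control ratio was 0.320 (0.304 to 0.338) on plate GL-9122b and 0.499 (0.459 to 0.542) on the GL9989 plates, and the dim to control ratios were 0.285 and 0.340.

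The share of cells with a Cdkn1a count was high in control and homozygous cells alike. It was found in all 20 cells of Mouse_26 with at least 1000 features and in 87.5% of the 8 such cells of Mouse_73, and in 95 and 76.8% of bright and 88.9 and 77.1% of dim cells of animals Mouse_25 and Mouse_116. Thinned to 100000 counts per cell, the shares were 99.9 and 77.5%, 78.3 and 69.2%, and 88.4 and 66.9%. Mouse_73 thus lay between the homozygous sums in the share of cells with a count, while its level per sum was above theirs.

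Mdm2, the negative regulator of p53, went the opposite way, but its difference depended on 1 control mouse. It stood at 23.9 normalized CPM in control Mouse_26 and at 1.74, from 6 counts, in control Mouse_73, against 26.9 and 44.1 in the bright and 31.01 and 50.9 in the dim cells of animals Mouse_25 and Mouse_116. Both homozygous groups lay above both controls, by a small margin over Mouse_26. The log2 fold change was 1.44 ± 1.12 for bright and 1.63 ± 1.08 for dim against control, and -0.21 ± 0.40 for bright against dim. On plate GL-9122b the bright to control ratio was 1.12 (0.988 to 1.28) and the dim to control ratio 1.30 (1.14 to 1.47), whereas against Mouse_73 the ratios were 25.4 (11.6 to 69.2) and 29.3 (13.4 to 79.9). Leaving out control Mouse_26 put the log2 fold changes at 4.31 and 4.54.

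The low level in Mouse_73 was present across its cells. Mdm2 had a count in 4 of its 9 cells, never more than 3 counts, while 11 of the 24 cells of Mouse_26 held at least 10. After thinning each cell to 100000 counts a count was left in 13.6% of the cells of Mouse_73 and in 52.1 to 59.03% of those of the 7 other sums. In the transgenic cells Mdm2 was patchy, with 27 of 59 bright and 25 of 50 dim cells of Mouse_116 at 10 counts or more and median cells of 10.2 and 9.20 CPM, far below the means of 52.2 and 53.6. The dim cells of Mouse_116 held 68.0 normalized CPM on plate GL9989-2 and 26.1 on plate GL9989-3, while its bright cells held 35.4 and 53.3, so that the direction between bright and dim turned with the plate. As a difference, though not as a ratio, the gap between the plates of the dim cells was wider than that between the control and dim means of 12.8 and 40.97.

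Ccng1 was found in most cells, and its control mice differed by more than the groups did. It stood at 379 and 246 normalized CPM in the controls, at 258 and 278 in bright and at 304 and 327 in dim cells of animals Mouse_25 and Mouse_116. The controls spanned all 4 homozygous sums. The log2 fold change against control was -0.24 ± 0.32 for bright and -0.00 ± 0.34 for dim cells, and -0.24 ± 0.19 for bright against dim. Within the plate names the signs were opposite, with bright to control ratios of 0.681 and 1.13. Bright sums were below dim sums in both mice, with ratios of 0.849 (0.817 to 0.882) and 0.850 (0.829 to 0.871). Within Mouse_116 the direction turned between the plates, with 241 in bright and 351 in dim cells on GL9989-2 but 316 and 292 on GL9989-3. Ccng1 was found in 95 to 100% of the cells with at least 1000 features in each sum.

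**Figure D2:**
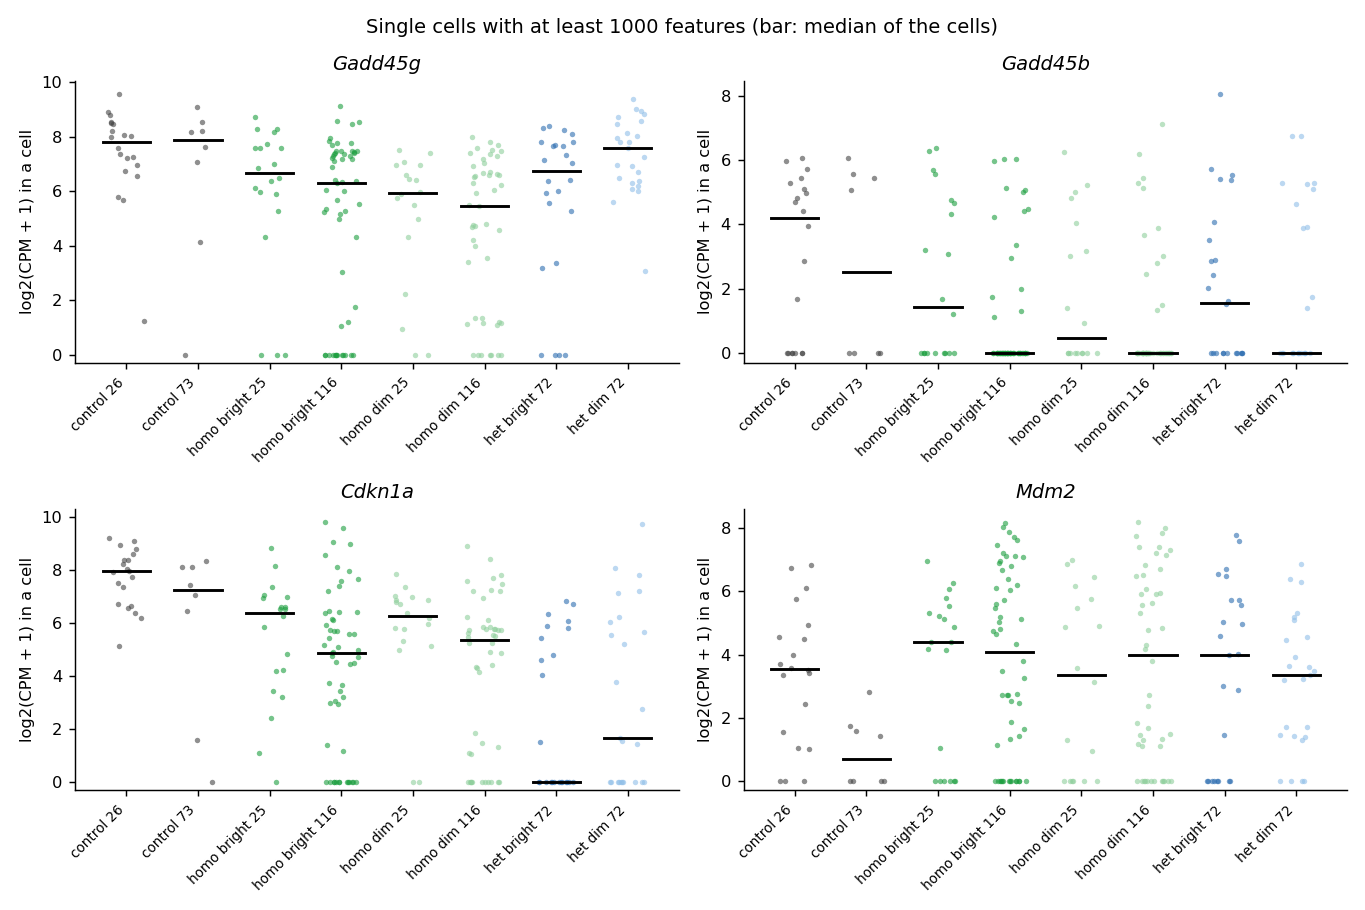
Level of 4 of the genes in single cells with at least 1000 features, as log2(CPM + 1), by genotype label, eGFP class and mouse (1 point per cell, bar at the median cell). Many cells lay at 0 for Gadd45b and Mdm2, and in control Mouse_73 no cell held more than 3 counts of Mdm2.

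Against all genes, the counts of members that did not overlap between groups read as follows. In bright against control cells 4 members (Gadd45a, Gadd45b, Gadd45g and Cdkn1a) lay below both controls, as did 14.8% of the 12203 genes tested, and 1 member (Mdm2) lay above both, as did 24.3%. In dim against control cells the same 4 lay below, beside 14.2% of 12195 genes, and Mdm2 above, beside 23.8%. In bright against dim cells Gadd45g and Cdkn1a lay above (15.1% of 13439 genes) and Ccng1 below (16%). Since the genes were selected on these contrasts, nothing more is read from the counts.

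Across all genes the quasi-likelihood test of edgeR, adjusted by Benjamini-Hochberg, called 0.0164% of genes in bright against control cells (2 genes, both transgene features), 0% in dim against control and 0% in bright against dim cells. At an unadjusted p under 0.05 these were 6.55%, 6.22% and 4.12% of genes. DESeq2 on the same sums called 0.869%, 0.451% and 0.662% of genes. Calls of the 6 members are not given, because the members were selected on these contrasts. With 2 homozygous against 2 control mice, an exact permutation test cannot give a p below 0.33. Bright against dim cells compared 2 sums with 2 of the same mice. Library size in place of TMM factors moved the median log2 fold change of all genes from 0.11 to 0.41 in bright and from 0.10 to 0.38 in dim against control cells. Gadd45g and Cdkn1a kept their sign under that and all other alternatives, and Ccng1 did not.

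**Figure D3:**
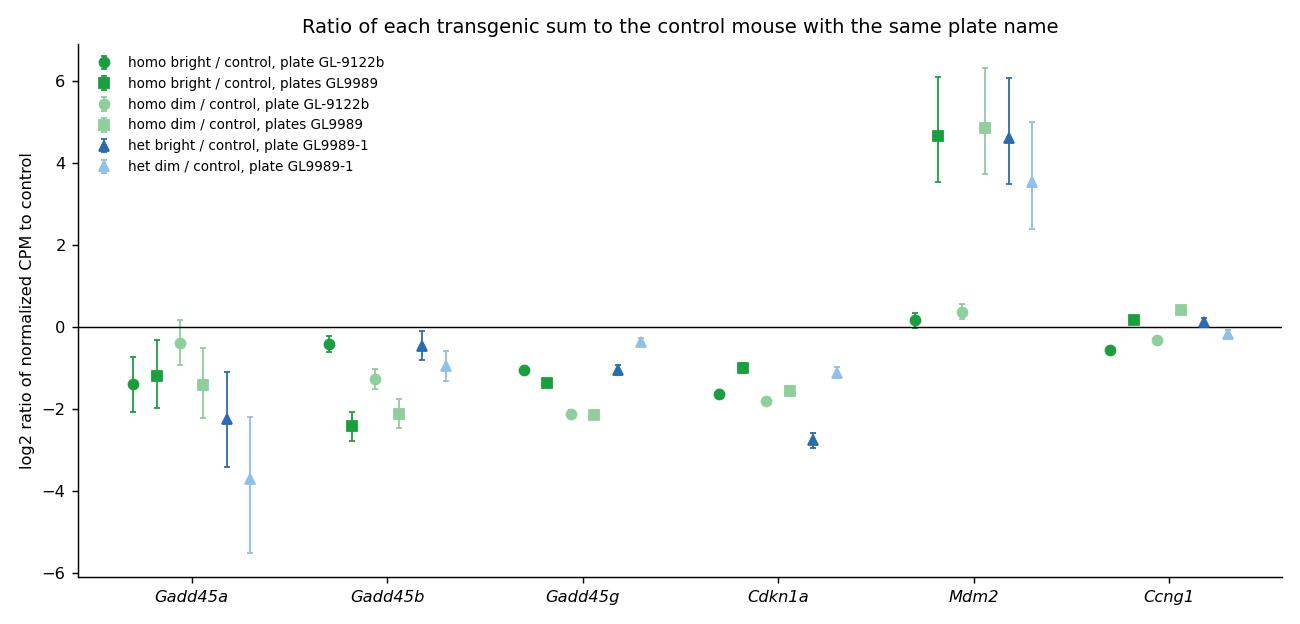
Log2 ratio of normalized CPM of each transgenic sum to the control mouse with the same plate name (Mouse_26 for GL-9122b, Mouse_73 for the GL9989 plates), with exact 95% intervals for counting error. Mouse_116 shared a plate name but no plate with Mouse_73. Gadd45g and Cdkn1a lay below 0 in all 6 ratios, while Mdm2 was at 0.17 and 0.37 against Mouse_26 and between 3.54 and 4.87 against Mouse_73.

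The heterozygous mouse had no replicate, so its values stand without a test. Against control Mouse_73, which shared its plate, Gadd45g was at 127 normalized CPM in cells labelled bright and 206 in cells labelled dim, or 0.482 (0.445 to 0.523) and 0.779 (0.722 to 0.840) of the control. Cdkn1a was at 27.6 and 86.8, or 0.147 (0.129 to 0.168) and 0.463 (0.421 to 0.510). One cell labelled dim held 51.4% of the Cdkn1a counts, and without it the level was 44.5. Cdkn1a had a count in 11 of 27 bright-labelled and 15 of 26 dim-labelled cells. Mdm2 stood at 42.9 and 20.3, Ccng1 at 266 and 217, Gadd45b at 20.4 and 14.4 and Gadd45a at 0.988 and 0.357, the last from 13 and 5 counts. One bright-labelled cell held 51.5% of the Gadd45b counts, and without it the level was 10.3.

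Bright and dim cells of 1 heart were compared within the mouse. In homozygous animals Mouse_25 and Mouse_116 Gadd45g was higher in bright than in dim cells, by log2 ratios of 1.08 and 0.78, and Cdkn1a by 0.17 and 0.55. In heterozygous Mouse_72 both genes were lower in the cells labelled bright, with log2 ratios of -0.69 and -1.65. The human BAG3 feature differed between the classes in the same directions, by 4.76, 1.20 and -1.14, so in the sums of each of the 3 hearts the class with more transgene also had more Gadd45g and Cdkn1a. For Cdkn1a the median cells of Mouse_116 did not share that order, and those of Mouse_25 were nearly equal. Within the sums the rank correlation of Gadd45g with the summed human BAG3 and eGFP features was between -0.36 and 0.28 (0.02 over 219 cells) and that of Cdkn1a between -0.31 and 0.30 (-0.00). These correlations share the library of the cell on both sides and are given as a description.

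**Figure D4:**
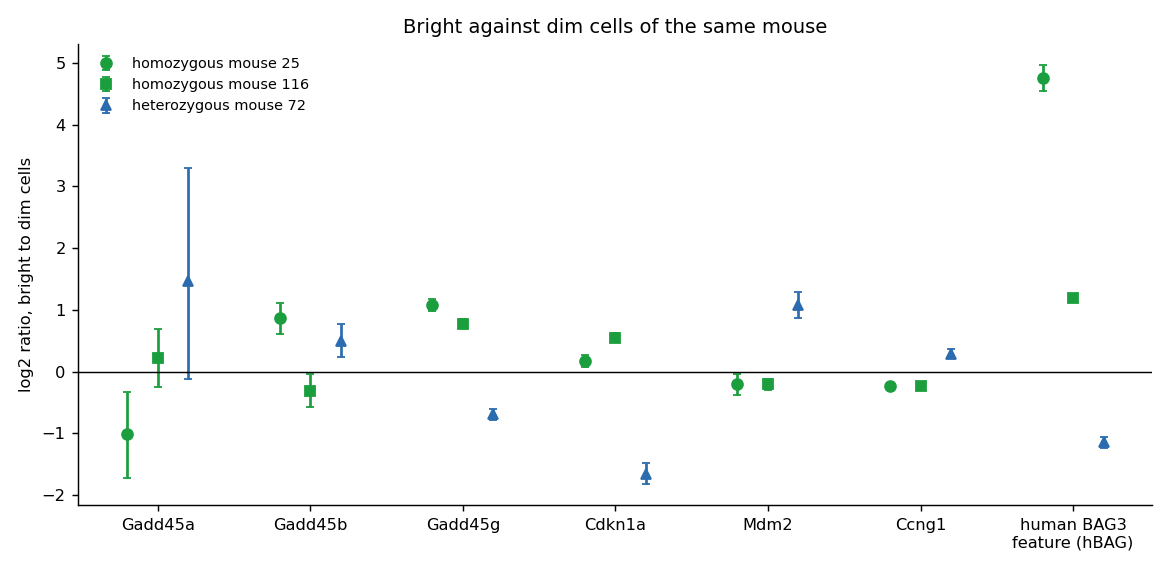
Log2 ratio of bright to dim cells within each mouse for the 6 genes and the human BAG3 feature, with exact 95% intervals for counting error. Gadd45g and Cdkn1a were above 0 in both homozygous mice and below 0 in Mouse_72, as was the transgene feature.

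Across single cells the members were at most weakly correlated. Over 219 cells with at least 1000 features, with ranks centred within each sum, the highest correlation between members was 0.21, for Gadd45b with Cdkn1a, followed by 0.19 for Gadd45a with Mdm2 and for Cdkn1a with Ccng1. Mdm2 with Cdkn1a gave -0.01. All 3 Gadd45 genes were found together in 0 to 4 cells of each sum. Cdkn1a followed the number of features of the cell (0.32, positive in 8 of 8 sums), and Gadd45b the summed immediate-early genes (0.24, positive in 8 of 8 sums).

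Of 7950 features with a count in at least 25% of these cells, the 3 whose ranks were most like those of each member correlated only weakly with it. They were Plk2, Yipf6 and Gpx7 for Cdkn1a (0.34, 0.32 and 0.31), Abra, 5430431A17Rik and Mat2a for Gadd45g (0.28, 0.28 and 0.27), and Tepsin, Faap20 and Trim63 for Gadd45b (0.33, 0.29 and 0.29). For Gadd45a they were Cstf3, Srcap and Ip6k1 (0.28, 0.27 and 0.26), for Mdm2 Tspo, Cacul1 and Ppm1b (0.30, 0.30 and 0.26), and for Ccng1 Coa5, Gpx3 and Mob1b (0.24, 0.23 and 0.23). Plk2, nearest to Cdkn1a, encodes a kinase that is itself a p53 target. In sparse counts, correlations of this size are no finding.

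Other p53 targets differed from control in both directions, and few passed a test. Of a list of 34 further targets, 28 could be tested in bright against control cells, where 19 were higher and 9 lower, with a median log2 fold change of 0.66 against 0.11 over all genes. Dram1 and Sesn2, which had no count in either control, passed the filter through the bright cells alone and could not be lower. No target passed edgeR's adjusted threshold, 6 were higher and 1 lower at an unadjusted p under 0.05, and DESeq2 called 2. These were Btg2, an antiproliferative gene, with a log2 fold change of 2.02 ± 0.50 (edgeR adjusted p = 0.663, DESeq2 adjusted p = 0.032, range over all fits 0.00235 to 1), and Zmat3, an RNA-binding protein, with 3.59 ± 1.08 (edgeR adjusted p = 0.663, DESeq2 adjusted p = 0.0496, range 0.0496 to 1). Btg2 stood at 77.8 and 42.6 normalized CPM in the controls, 163 and 334 in bright and 92.1 and 388 in dim cells of animals Mouse_25 and Mouse_116. Zmat3 stood at 2.29 and 2.03, 43.4 and 9.81, and 5.57 and 2.07. Both mice lay above both controls for 13 of the 28 targets, where 24.3% of all genes did, and below for 4, where 14.8% did.

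In dim against control cells 25 targets were tested, of which 15 were higher and 10 lower, with a median of 0.45 against 0.10 over all genes. No target passed in edgeR, 3 were higher and 0 lower at an unadjusted p under 0.05, and DESeq2 called 1, the autophagy regulator Dram1 (adjusted p = 0.0472, range over all fits 0.0472 to 1), which had no count in either control and was at least 45-fold higher in dim cells against a floor of 3 counts over the group. Dram1, counted among the 15 and the 3 higher, passed the filter through the dim cells alone. Its direction was fixed, and nothing is read from its call. In bright against dim cells 15 of 30 targets were higher and 15 lower, with a median of 0.00 against -0.01, and neither edgeR nor DESeq2 called any, with 3 at an unadjusted p under 0.05. Pidd1, without a count in the dim cells, entered through the bright cells alone and could not be lower.

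Further targets fixed by name differed in level and direction. Of the 3 named genes of the BCL-2 family, Bax stood at 11.8 and 24.7 normalized CPM in the controls and 13.1 to 18.4 in homozygous cells, Bbc3 (PUMA) at 0 and 0.290 against 0.315 to 4.03, and Pmaip1 (NOXA) had no count in any sum. Phlda3, an inhibitor of Akt, stood at 0.614 and 0 in the controls against 7.20 to 18.7 in the 4 homozygous sums, with log2 fold changes of 4.91 ± 1.67 and 5.06 ± 1.68 (edgeR adjusted p = 0.663 and 0.735). Eda2r, a death receptor of the TNF family, stood at 2.68 and 0 against 4.84 to 8.46, and Plk2 at 10.2 and 26.97 against 35.3 to 47.1. The phosphatase gene Ppm1d, which dampens p53, stood at 3.40 and 0 against 5.05 to 14.4. Sesn1, an antioxidant regulator of mTORC1, stood lower, at 99.3 and 112 against 31.2 to 84.03. Trp53inp1 had 6.14 and 54.2 in the controls against 0.631 to 13.1. Sesn2 had no count in the controls and was at least 22.2-fold higher in bright cells against a floor of 3 counts over the group.

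**Figure D5:**
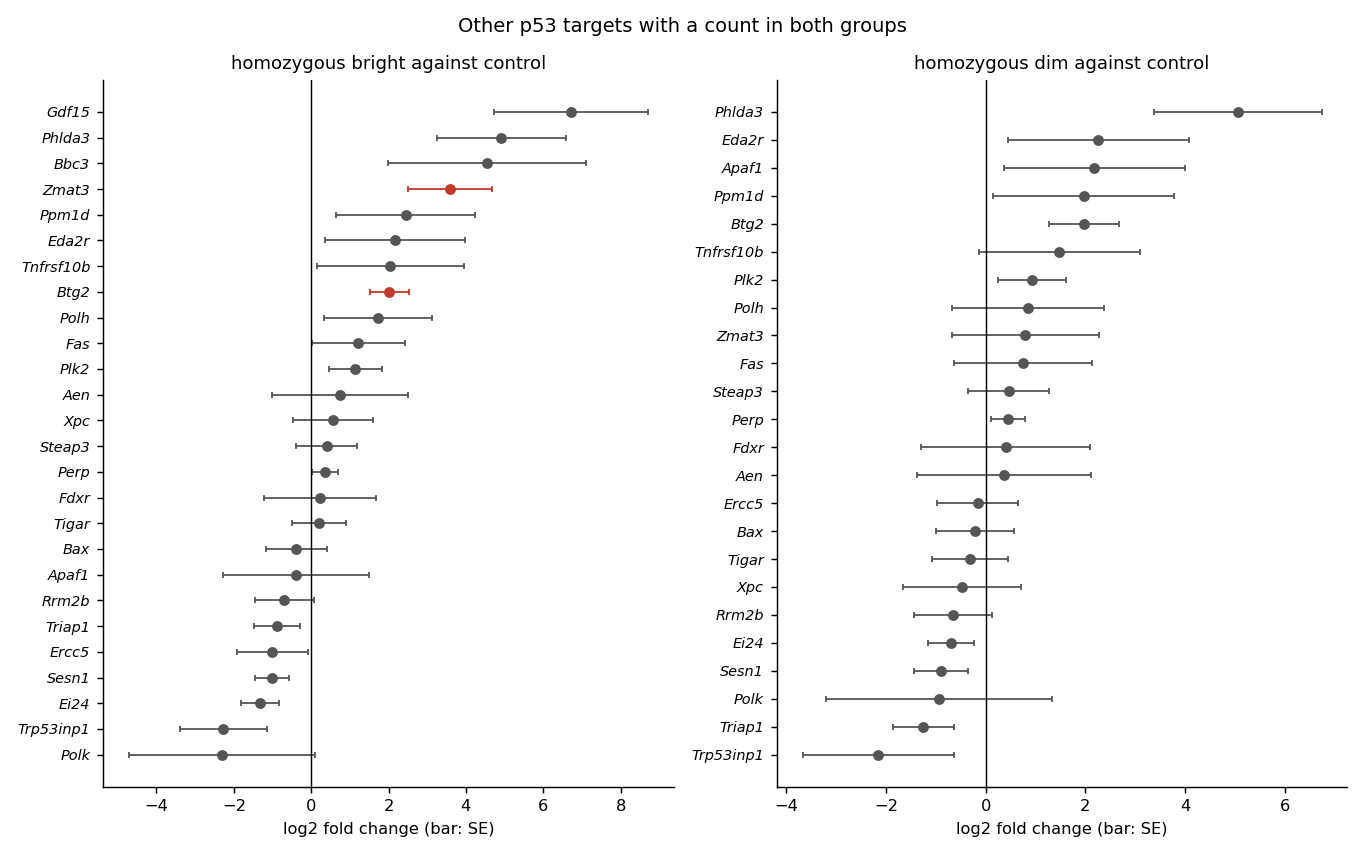
Log2 fold change with standard error (edgeR) of the p53 targets outside the 6 genes that had a count in both groups, for homozygous bright (left) and dim (right) against control; red marks a DESeq2 adjusted p under 0.05. Btg2 and Zmat3 are red in the bright panel, and Bbc3, with 0 and 0.290 normalized CPM in the controls, has an SE of 2.56 there.

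The regulators of p53 showed no common direction. Trp53, the p53 gene itself, stood at 7.70 and 8.70 normalized CPM in the controls, 12.9 and 13.1 in bright and 12.2 and 21.97 in dim cells, with log2 fold changes of 0.64 ± 0.89 and 1.04 ± 0.87. Mdm4, the partner of Mdm2, stood at 18.7 and 55.7, 20.8 and 27.8, and 38.99 and 39.2. Of 15 regulators 12 were tested in bright against control cells (8 higher, 4 lower), 10 in dim against control (6 and 4) and 13 in bright against dim (7 and 6), and none was called by edgeR or DESeq2, with 1, 0 and 0 at an unadjusted p under 0.05. That 1 gene was Chek1, also counted among the 8 higher. It had no count in either control and entered through the bright cells alone, so its direction was fixed.

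Among the partners of the Gadd45 proteins, no kinase passed a test. Map3k4 had 24.2 and 40.02 normalized CPM in the controls and 17.2 to 31.4 in homozygous cells, and Map2k7 23.7 and 29 against 11.1 to 23.2. Cdk1 had no count in the controls and in the bright cells of Mouse_25, and 4.63 to 9.76 in the 3 other homozygous sums. Of 9 partners 7 could be tested in bright against control (2 higher, 5 lower) and 9 in dim against control cells (4 and 5) and in bright against dim cells (5 and 4), with 0, 2 and 0 at an unadjusted p under 0.05. Of the partners of p21 (cyclins, kinases and Pcna), 8 of 9 were higher in bright and 10 of 10 in dim against control cells, with medians of 0.93 and 1.11 and 0 and 1 at an unadjusted p under 0.05. Ccna2, Cdk1 and Ccnb1 had no count in either control and entered the dim comparison through the dim cells alone, so their direction was fixed. Cdk4 stood at 41.8 and 75.1 in the controls and 58.9 to 75.9 in homozygous cells, and Pcna at 15.7 and 3.48 against 11.3 to 28.1. Of 6 other cyclin-dependent kinase inhibitors 4 were tested against control, 3 of them higher, with 1 lower in each at an unadjusted p under 0.05. No gene of these lists was called by edgeR or DESeq2.

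Immediate-early genes, which cell isolation can induce, were higher in 12 of 14 tested in bright and 10 of 13 in dim against control cells (medians 1.77 and 0.89, or 1.70 and 0.89 with a gene without control counts at its bound), and edgeR called none, with 2 and 1 at an unadjusted p under 0.05. Egr2, counted in the 12 and the 2, had no count in either control. It entered the bright comparison through the bright cells alone, so its direction was fixed. Both mice lay above both controls for 6 of the 14 and 5 of the 13 genes, where 24.3% and 23.8% of all genes did. Their summed level was 904 and 814 normalized CPM in bright cells, but in dim cells only Mouse_116 (959) and not Mouse_25 (433) exceeded the controls (373.5 and 467). DESeq2 called Atf3, a stress-induced transcription factor, in both, with log2 fold changes of 3.54 ± 0.90 (DESeq2 adjusted p = 0.00877, range over all fits 2.92e-06 to 1) and 3.86 ± 1.01 (DESeq2 adjusted p = 0.00347, range 4.47e-08 to 1), while edgeR gave adjusted p = 0.663 and 0.735. Atf3 stood at 9.65 and 12.2 normalized CPM in the controls, 35.6 and 221 in bright and 30.6 and 289 in dim cells of animals Mouse_25 and Mouse_116. Its high levels came from Mouse_116. Of the integrated stress response genes, 5 of 8 were higher in bright and 4 of 7 in dim against control cells, without a call, and Ddit3 (CHOP) had log2 fold changes of -2.56 ± 0.77 and -2.56 ± 0.73 (edgeR adjusted p = 0.663 and 0.735). Sesn2, counted among the 5, had no count in either control, so its direction was fixed. In bright against dim cells 9 of 9 were higher, with a median of 0.21 against -0.01 over all genes and 0 at an unadjusted p under 0.05. Among the 9, Ddit3 and Slc7a11 were at 0.01 and Trib3 at 0.02.

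Markers of other cells moved with some of these groups, and their part in the results was not tested. Macrophage markers (6 genes) summed to 2.29 and 14.2 normalized CPM in the controls, 0.252 and 1.80 in bright and 70.3 and 57.2 in dim cells of animals Mouse_25 and Mouse_116, where DESeq2 called Csf1r and Lyz2 against control, and these with C1qa and C1qb in bright against dim cells. C1qa had no count in the homozygous bright cells. It entered the bright against dim comparison through the dim cells alone, so its direction was fixed. Ptprc was at 0 in all sums but the dim cells of Mouse_116 and the bright-labelled cells of Mouse_72. Endothelial markers (6 of 6 with a count in every sum) summed to 78.8 and 173, 64.7 and 73.2, and 168 and 162. Fibroblast markers reached 2133 in the bright cells of Mouse_25 against 22.2 to 493 in the others, and DESeq2 called Col1a2 in bright against control cells. Cycling markers summed to 0.279 and 0 in the controls and to 0.151 and 165 in bright and 32.3 and 44.3 in dim cells, with Mki67 and Top2a called by DESeq2 in dim against control cells. The 5 mural markers summed to 383 to 1476, Myh11 was at 0 in 7 of 8 sums, and DESeq2 called Pdgfrb in bright against dim cells.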

How the data were processed

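Single CMs of 5 mice (234 cells, each deposited as a sample) were measured with SMART-seq2. The authors mapped reads with STAR 2.7.0f under default parameters to mouse sequence extended by human BAG3 and eGFP and deposited whole-number counts per feature from its GeneCounts option, without normalization. Genome build, annotation and strand column are not given in the sources used here, and the labels' processing notes also name bcl2fastq. A total of 24 symbols were turned into dates and 141 repeated symbols were kept apart.

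The cells of a mouse that shared an eGFP class were added up. The sums entered edgeR 4.0.16 in R 4.3.3 (genes kept by filterByExpr, factors by TMM, glmQLFit, glmQLFTest, Benjamini-Hochberg, threshold 0.05), 2 sums against 2, and DESeq2 1.42.0 and limma 3.58.1 were alternatives. The scripts were tested on simulated data with known changes. Levels are CPM divided by TMM factors over all 8 sums, with exact Poisson intervals (single counts) or exact Clopper-Pearson intervals (ratios) at the 95% level, which cover counting error only. Relations among cells used ranks of log2(CPM + 1). The bright and dim cells of Mouse_25 and Mouse_116 are paired because they come from the same animals, as the labels give them, and the fit with the mouse as a block is an alternative.

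The 6 members, the further gene lists and the tests were chosen with earlier results of these data known. Genes named besides the members were those of the lists past the threshold in edgeR or DESeq2, a set of p53 and stress genes fixed by name and the 3 features nearest to each member over cells. The labels do not say whether cells were handled in separate preparations beyond the mouse and plate name, so p-values measure the spread between these mice.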

Additional observations from a re-analysis of the deposited data

Results flagged for a closer look

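In sums over cells, Gadd45g, Cdkn1a, Mdm2 and Ccng1 differed between bright and dim cells in one direction in both homozygous mice and in the opposite direction in heterozygous Mouse_72, and this difference between genotypes was not tested, since Mouse_72 is 1 animal. For Gadd45g the log2 ratio of bright to dim cells was -0.69 in Mouse_72 against 1.08 and 0.78 in Mouse_25 and Mouse_116. For Cdkn1a it was -1.65 against 0.17 and 0.55, for Mdm2 1.08 against -0.20 and -0.21, and for Ccng1 0.29 against -0.24 in both. The human BAG3 feature, which is no member, was at -1.14 against 4.76 and 1.20, so the cells labelled dim in Mouse_72 were the richer ones in transgene. Ordered by transgene level in place of the label, the sums of all 4 genes differed in the same direction in Mouse_72 as in Mouse_25 and Mouse_116. That direction was not stable for 3 of them. Within Mouse_116, Mdm2 stood at 35.4 normalized CPM in bright and 68.0 in dim cells on plate GL9989-2 but at 53.3 and 26.1 on GL9989-3, and Ccng1 at 241 and 351 but 316 and 292. The median cells of Mouse_25 and Mouse_116 ran against the sums for Mdm2 (20.2 CPM in bright and 9.35 in dim, and 10.2 and 9.20). For Cdkn1a those of Mouse_116 did so (28.3 and 37.4), and those of Mouse_25 were nearly equal (77.0 and 77.2). Whether the bright and dim labels of Mouse_72 are exchanged was not tested. Without its cell with the most Cdkn1a counts, the dim-labelled sum of Mouse_72 was at 44.5 normalized CPM in place of 86.8, still above the 27.6 of the bright-labelled cells.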

How the results depend on the processing

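Gadd45g and Cdkn1a kept the sign of their log2 fold change in all 3 comparisons under all 11 alternatives, from -1.37 to -0.81 and -1.64 to -0.89 (bright against control), -2.17 to -1.74 and -2.0 to -1.25 (dim against control) and 0.71 to 1.13 and 0.17 to 0.55 (bright against dim). Gadd45a kept its sign as well. Ccng1 changed sign in 3, 7 and 1 of the 11, Mdm2 in 2 for bright against dim, and Gadd45b in 1 there, without the bright cells of Mouse_25 (-0.72). Mdm2 ranged from 0.58 to 4.31 (bright) and 0.77 to 4.54 (dim against control). The causes were not tested.

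Counts of called genes depended on the tool. Against 2 (bright against control), 0 (dim against control) and 0 (bright against dim), DESeq2 called 106, 55 and 89, edgeR without a filter on counts 163, 58 and 217, a block for the plate name 10 and 12 against control, 1 fit of all 8 sums 5 and 1, and limma with equally weighted cells 0 in bright against control. Leaving out 1 mouse gave 0 to 41, 3 to 827 and 0 to 74 genes, with 0 in bright against control and 827 in dim against control without control Mouse_26, 3 in the latter without control Mouse_73, 41 and 74 without the bright cells of Mouse_116, 15 without those of Mouse_25, and 8 and 10 without the dim cells of Mouse_116 and Mouse_25, and the lone sum left in a group was taken to vary like the other group. In the list of further p53 targets, 0 called genes became 2, 1 and 0 with DESeq2, 1, 1 and 1 without a filter, and 0 to 0, 0 to 2 and 0 to 0 with a mouse left out (2 without control Mouse_26). In the pathway lists 0 became 1, 1 and 0 with DESeq2, 6, 1 and 3 without a filter, 1 with the plate block (dim against control), and 0 to 1, 0 to 4 and 0 to 2 with a mouse left out. With the mouse as a replicate block, bright against dim cells again gave 0 called genes (468 at an unadjusted p under 0.05), so the pairing changed no call.

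Of 48 shares of cells with a count, 14 left their binomial interval when cells were thinned to 100000 counts and 8 when only cells with at least 1000 features were taken. Leaving out the cell with the most counts, an alternative added after seeing the data, moved 44 of 48 levels beyond counting error. Gadd45a rests on 5 to 92 counts in a sum, and a part of depth in its spread was not tested.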
